A study of Mus musculus with 282 samples.

Results

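Interferon-stimulated genes were examined in the hypothalamus of male mice from inbred and recombinant inbred strains fed a high fat, high sugar diet. Of 9 genes named for this purpose, Ifitm2, Ifitm3, Ifi27, Ifit3, Bst2, Stat2, Irf9, Irf7 and Usp18, 7 had a row among the 14079 genes of the deposited expression table, found by their gene name in the merged transcript assembly. Irf7 and Usp18 were not analysed here. Whole hypothalamus was profiled by RNA-seq in 282 mice, and the values are FPKM, fragments scaled to transcript length and library size. The animals came from 99 strains of the Hybrid Mouse Diversity Panel: 43 BXD strains (C57BL/6J crossed with DBA/2J), 18 AXB/BXA strains (C57BL/6J and A/J), 7 CXB strains (C57BL/6J and BALB/cJ), 6 BXH strains (C57BL/6J and C3H/HeJ) and 25 classical inbred strains, which include the parents. Every mouse was male and on the high fat, high sugar diet. No unchallenged diet, female or other tissue stands beside them, and ages were not used here. The groups are the strains, and each strain differs from the others over its whole genome.

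Interferons are secreted signals of antiviral defence. Type I interferons bind a receptor made of Ifnar1 and Ifnar2, and the kinases on that receptor phosphorylate the factor Stat2. It joins Irf9 in a complex that enters the nucleus and binds a short element, the interferon-stimulated response element, before genes such as Ifit3, Bst2 and Ifitm3. Interferon gamma acts through another receptor. In the brain, glia, endothelium and neurons can all answer interferon, and a low tonic level of the programme is present without infection. Bulk RNA cannot tell fewer cells of a type from less RNA per cell.

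The sequences before the start of these genes are shown because they hold the letters that the response element is built on. RefSeq promoter windows (300 bases, GRCm38.p6, reaching past the start) were found for Ifitm2, Ifitm3, Ifit3, Bst2, Stat2 and Irf9. The core, GAAA followed by any 2 bases and GAAA again, was searched on both strands, and 3.44% of 32851 promoter windows of the genome held it. Positions are counted from the annotated start, which is 0. In the 250 bases before each start below, in the gene's own orientation, capitals mark every match, and a match that opens with TTTC is the same core on the opposite strand. The stretch of Ifit3 lies at chr19:34583279-34583528 (+ strand), that of Bst2 at chr8:71537473-71537722 (- strand), that of Ifitm2 at chr7:140955962-140956211 (- strand) and that of Stat2 at chr10:128270248-128270497 (+ strand).
Ifit3: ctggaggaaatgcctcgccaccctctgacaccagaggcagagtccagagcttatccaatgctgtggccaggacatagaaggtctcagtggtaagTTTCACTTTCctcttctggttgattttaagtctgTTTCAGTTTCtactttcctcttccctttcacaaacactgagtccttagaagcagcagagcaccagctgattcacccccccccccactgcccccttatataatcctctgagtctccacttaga
Bst2: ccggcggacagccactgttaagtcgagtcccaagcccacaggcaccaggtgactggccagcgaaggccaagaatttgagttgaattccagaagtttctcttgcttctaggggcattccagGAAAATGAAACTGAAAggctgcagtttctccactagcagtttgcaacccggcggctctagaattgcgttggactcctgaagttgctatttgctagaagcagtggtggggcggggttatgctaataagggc
Ifitm2: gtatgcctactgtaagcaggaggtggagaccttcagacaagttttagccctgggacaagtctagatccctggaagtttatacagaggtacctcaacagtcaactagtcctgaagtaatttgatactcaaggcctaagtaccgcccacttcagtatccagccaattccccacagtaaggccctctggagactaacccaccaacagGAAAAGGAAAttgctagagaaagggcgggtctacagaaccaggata
Stat2: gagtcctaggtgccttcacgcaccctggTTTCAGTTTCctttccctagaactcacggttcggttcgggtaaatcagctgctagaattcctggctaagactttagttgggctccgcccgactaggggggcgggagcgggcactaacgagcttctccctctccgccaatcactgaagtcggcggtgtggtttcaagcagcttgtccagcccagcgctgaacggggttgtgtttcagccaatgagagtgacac
Ifit3 held 2 matches, at -156 and -122. Bst2 held 2 that overlap, at -130 and -124. Ifitm2 held 1 match at -46 and Stat2 held 1 at -222. In Ifitm3 both matches lay after the start, at 2 and 19, within the 30 bases of chr7:141010714-141010743 (- strand).
Ifitm3: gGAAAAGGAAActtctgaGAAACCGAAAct
The windows of Irf9 held no match in these letters. A match is a run of letters in the reference genome and says nothing of binding in these animals.

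In the assembly (mm10) Ifitm2 was placed at chr7:140954839-140955961 and Ifitm3 at chr7:141009586-141010770, 53624 bases apart, both on the - strand and both of 2 exons. They encode small membrane proteins that hinder viruses from entering the cytosol. Ifi27, a small hydrophobic protein strongly induced by interferon, was at chr12:103434211-103440239 with 8 transcripts. Ifit3, a tetratricopeptide repeat protein that acts with Ifit1 on viral RNA, was at chr19:34583531-34588731. Bst2 (tetherin), which holds budding virions at the cell surface, was at chr8:71534264-71537437. Stat2 was at chr10:128270509-128293190. Irf9 was joined in a single locus with its neighbour Rnf31, a ubiquitin ligase, at chr14:55591708-55610258, so its gene row sums both genes.

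Of the 282 columns, those of mice OB-273 and OB-274 (CXB-6/ByJ) held almost the same values. The SD over genes of their log2 difference was 0.00131, against 0.234 or more in every other pair of strain-mates. They were counted as 1 sample, their mean, which leaves 281 samples, though the study lists different read totals for them. Mouse OB-627 has a title and a strain label that name different AXB strains and was left out of strain comparisons. Mouse OB-547 (BXD-12/TyJ) stood apart, with gene FPKM summing to 792801 against a median of 337533, and 23.0% of all genes were at least 1 log2 unit above its strain-mates. Several strain orders, pair counts and correlations that it decides are also given without it. The counts of pathway loci and the genes most like each row are given only with it in. Of 10 hypothalamic markers 9 had a row: Pmch (median 476 FPKM), Oxt (301), Avp (219), Hcrt (120) and Agrp (118) led them and were detected in every sample. Of 10 lymphocyte markers, such as Cd3e, none had a gene row.

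Ifi27 was the most abundant of the 7 rows and Bst2 the least, with means of 23.8 ± 13.5 and 3.80 ± 4.01 FPKM (SD, n = 281). Without the highest sample of each, OB-547 for Ifi27 and OB-1121 for Bst2, these SDs were 9.72 and 2.84. Across samples Ifi27 ran from 10.1 through a median of 21.2 to 182 FPKM. Ifitm3 ran from 5.53 through 11.6 to 75.6 FPKM. Both had long upper tails, with the next highest samples at 55.5 FPKM for Ifitm3 and 108.4 for Ifi27. Bst2 ran from 0.599 through 2.94 to 51.2 FPKM. Ifit3 ran from 0.240 through 3.62 to 41.9 FPKM; its strain means reached 10.8-fold below their median, against 2.59-fold or less for the other 6 rows. Ifitm2, with a median of 6.23 FPKM, ran from 1.82 to 17.9. The rows of Stat2 and the Irf9 locus were narrower. Stat2 ran from 4.36 through 6.01 to 18.6 FPKM, and its SD of 1.02 became 0.697 without the highest sample. The Irf9 locus ran from 8.93 through 13.0 to 24.9 FPKM, of which the only listed transcript named Irf9 took a median of 6.77%. The whole share of Irf9 in that row is not known. As these levels are per length they can be ordered between genes, with the caution that 48.5% of the distinct 50-base windows of Ifitm2 and 51.2% of those of Ifit3 occur unchanged in transcripts of other genes (GENCODE M21), for Ifit3 only in its neighbour and paralog Ifit3b. For Ifitm3 63 windows did so, and for Bst2 and Ifi27 none.

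**Figure D1:**
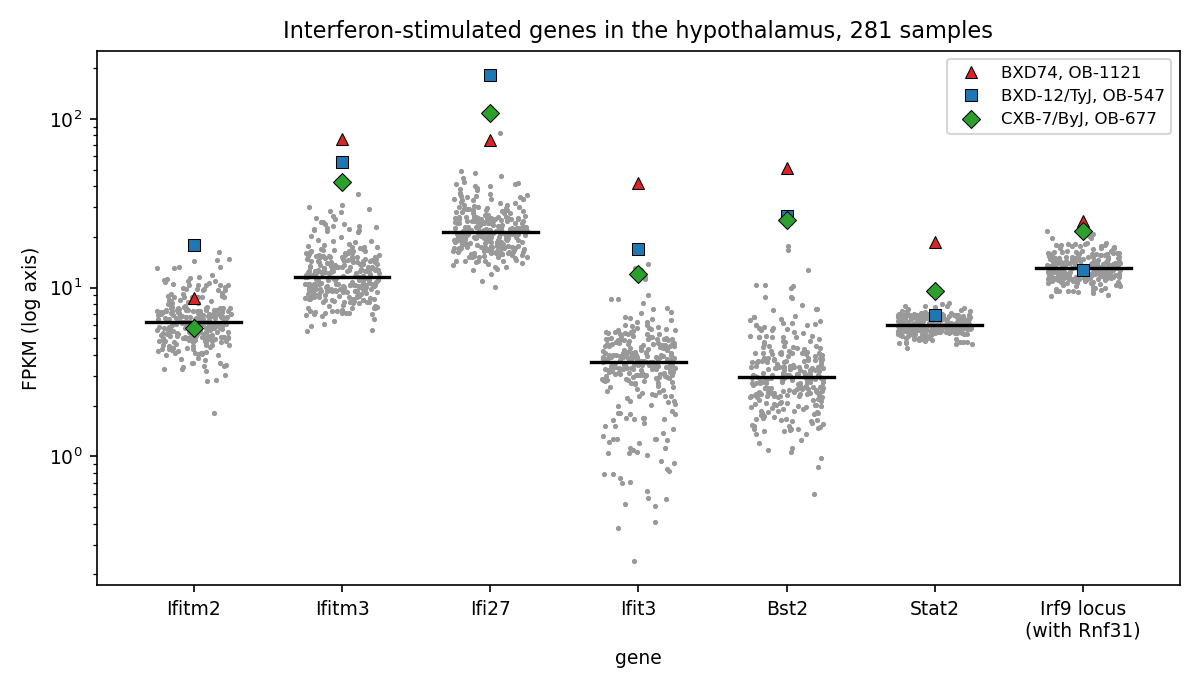
FPKM (log axis) of the 7 gene rows in 281 samples; each grey point is a sample, the black bar is the median, and the coloured symbols are 3 samples named in the text. OB-1121 is the highest sample for Ifitm3 (75.6), Ifit3 (41.9), Bst2 (51.2), Stat2 (18.6) and the Irf9 locus (24.9), and OB-547 for Ifitm2 (17.9) and Ifi27 (182).

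Strain differences were present in all 7 rows, but in Ifit3 they took most of the variance. The strain share, the intraclass correlation over 99 strains of log2(FPKM + 1), was 0.779 for Ifit3, at percentile 97.0 of all genes. It was 0.488 for Bst2, 0.469 for Ifitm3, 0.444 for Ifi27, 0.339 for Stat2, 0.223 for Ifitm2 and 0.163 for the Irf9 locus, against a median of 0.221 over all genes. limma's moderated F test with Benjamini-Hochberg adjustment over all genes called all 7 (adjusted p = 8.36e-42 for Ifit3, 0.00766 for the Irf9 locus), where 74.9% of all genes were called, so the count itself does not set these genes apart. Mice carry numbers within their strain in accession order. With mouse 1 of every strain left out, Ifitm2 (adjusted p = 0.0793) and the Irf9 locus (0.237) were not called, and with mouse 2 left out Stat2 (0.116) and the Irf9 locus (0.141) were not.

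Strain means of Ifit3 spanned 60.3-fold, and 33.3-fold without mouse OB-1121 of BXD74. The lowest strain was RIIIS/J, whose mice had 0.240, 0.376 and 0.407 FPKM. Next came C57L/J with 0.525, 0.510 and 0.784 FPKM, and BXA-11/PgnJ with 0.916, 0.559 and 1.26 FPKM. No mouse of these strains reached the lowest C57BL/6J mouse, which had 2.83 FPKM. In all, 19 strains lay wholly below the C57BL/6J mice, 8 of them classical inbred, 7 AXB/BXA, 3 CXB, 1 BXD and none BXH. At the upper end stood BXD74 (7.03, 12.8 and 41.9 FPKM), BXD-38/TyJ (12.4, 13.1 and 8.56 FPKM) and BXD-12/TyJ (5.48, 17.0 and 3.82 FPKM, the second being OB-547). The high strains thus differed in how evenly their mice were high: every BXD-38/TyJ mouse was above every mouse of the 3 lowest strains and of C57BL/6J, while BXD74 and BXD-12/TyJ each held 1 mouse far above its strain-mates. Without OB-1121 BXD74 averaged 9.91 FPKM and came after BXD-38/TyJ, and without OB-547 BXD-12/TyJ averaged 4.65 FPKM and came at place 23 of 99. Strains next to each other in the order overlapped between their mice in 97 of 98 pairs.

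**Figure D2:**
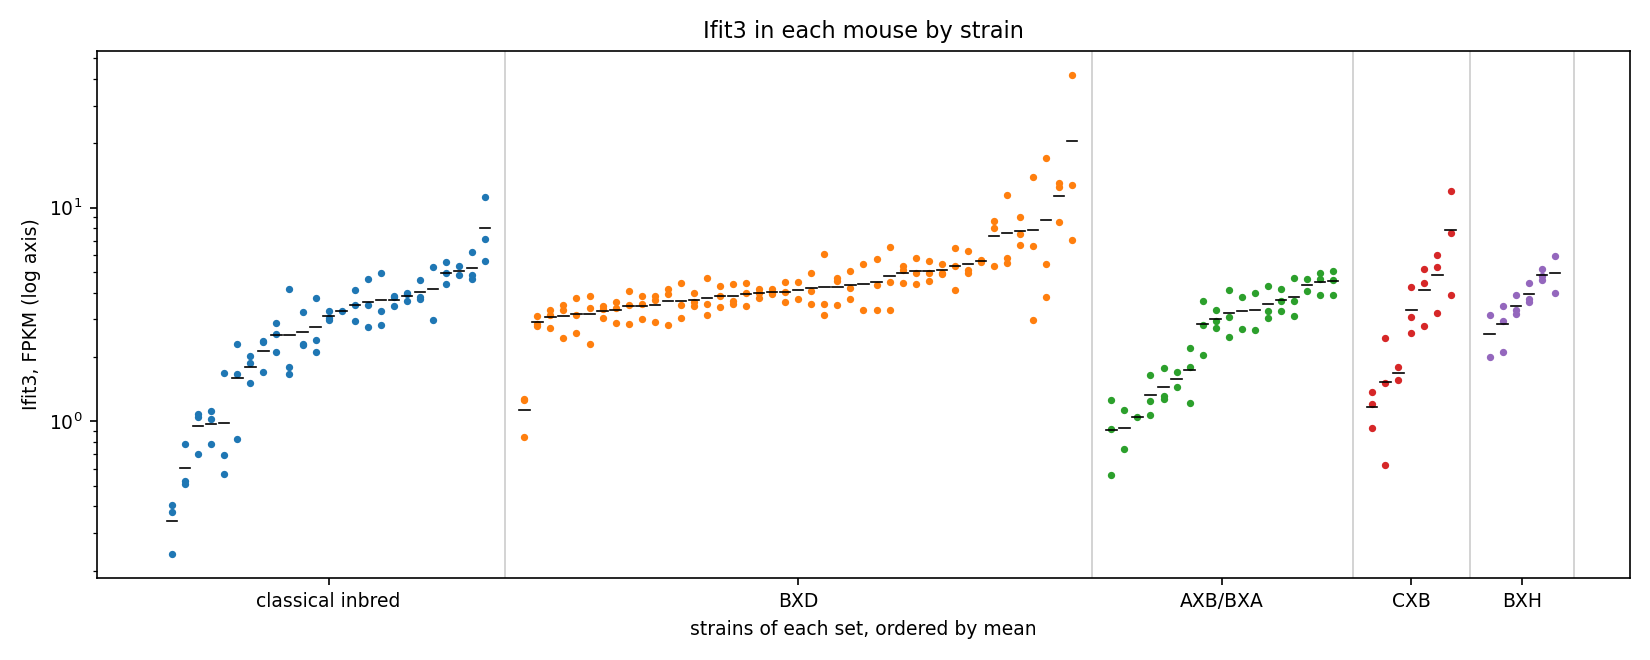
Ifit3 FPKM (log axis) in each mouse, with strains ordered by their mean (black bar) within each set. The AXB/BXA strains run from 0.913 to 4.52 FPKM with their widest gap between 1.74 and 2.84, and 1 BXD strain, at 1.13, lies below all others of its set.

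In AXB/BXA strains Ifit3 was the one row of the 7 that was called (strain share 0.854, adjusted p = 1.59e-12, limma F test; 22.1% of all genes were called). The count was 2 without OB-547 or without OB-1121, neither of them an AXB/BXA mouse but both part of the shared residual spread, and 4 without BXD-12/TyJ, BXD74 and CXB-7/ByJ. The 18 strain means parted most widely between 1.74 and 2.84 FPKM, with 7 strains below and 11 above that gap, and the parents on either side: A/J had 0.948 ± 0.212 FPKM and C57BL/6J 3.69 ± 1.11 (SD, n = 3 each). In CXB strains Ifit3 ran from 1.17 in CXB-11/HiAJ to 7.82 in CXB-7/ByJ. BALB/cJ mice had 2.01, 1.87 and 1.51 FPKM, all below the C57BL/6J mice. Of the BXD strains, BXD-15/TyJ, singled out after its values were seen, had 1.27, 1.26 and 0.844 FPKM, while the next lowest BXD strain averaged 2.92 and both parents were above that (C57BL/6J 3.69, DBA/2J 8.01).

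The row named I830012O16Rik, an older symbol of Ifit3b, was the gene most like Ifit3 over strain means (r = 0.792, rho = 0.786, n = 99). It lies next to it on chromosome 19 and shares the windows counted above. RIIIS/J was lowest in both rows, with 0.331, 0.278 and 0.150 FPKM of I830012O16Rik. In BALB/cJ the rows parted, since I830012O16Rik averaged 2.304 FPKM there and 2.25 in C57BL/6J. In A/J it averaged 1.36 FPKM. How reads were split between the paralogs was not tested.

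Single mice decided much of the upper end of the other effectors. BXD74, CXB-7/ByJ and BXD-38/TyJ had the highest mean Bst2 (20.4, 15.9 and 11.4 FPKM) and the highest mean Ifitm3 (36.8, 28.8 and 27.3 FPKM). CXB-7/ByJ, BXD-12/TyJ and BXD74 had the highest mean Ifi27 (73.5, 72.6 and 50.1 FPKM). Without OB-547 the BXD-12/TyJ mean of Ifi27 was 18.0 FPKM, at place 76 of 99. Without OB-1121 the BXD74 mean was 4.97 FPKM of Bst2, at place 15, and 17.4 FPKM of Ifitm3, at place 16, while its Ifi27 mean of 37.9 FPKM was at place 5. CXB-7/ByJ and BXD-38/TyJ then led Bst2 and Ifitm3. At the low end, Bst2 was lowest in SWR/J (0.982, 1.06 and 1.48 FPKM), followed by 129X1/SvJ and BXD-36/TyJ. Ifitm3 was lowest in 129X1/SvJ (6.52, 5.61 and 5.53 FPKM), followed by NZW/LacJ and I/LnJ, the last a single mouse. Ifi27 was lowest in SJL/J (10.1 and 15.98 FPKM), followed by BXA-8/PgnJ and NON/LtJ. Ifitm2 had its own order, with BXD50 (6.70, 16.3 and 11.9 FPKM), NZW/LacJ (13.2, 7.59 and 13.1 FPKM) and BXD-12/TyJ at the top and AXB-6/PgnJ, AXB-12/PgnJ and BXD55 at the bottom. Without OB-547 the BXD-12/TyJ mean of Ifitm2 went from 10.5 to 6.80 FPKM, at place 40. NZW/LacJ was thus second for Ifitm2 and next to last for its neighbour Ifitm3.

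Strain means of Stat2 ran from 4.94 FPKM in BXD51 to 10.8 in BXD74, whose mice had 6.49, 7.33 and 18.6 FPKM. Without the last, OB-1121, BXD74 averaged 6.91 FPKM, at place 6, and the span of strain means fell from 2.18-fold to 1.54-fold. With all mice, CXB-7/ByJ (7.61) and C3H/HeJ (7.31) came after BXD74, and CXB-13/HiAJ and KK/HlJ were near the bottom. Those of the Irf9 locus ran from 10.4 FPKM in AXB-18/PgnJ, with BXD84 and BXA-2/PgnJ next, to 18.4 in BXD62, with CXB-7/ByJ and BXHA1 below it. Every neighbouring pair in the orders of these 6 rows overlapped.

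By set, the F test called 6 of 7 rows among BXD strains (64% of all genes), all but the Irf9 locus. Among classical inbred strains it called 6 of 7 (47.4% of all genes), again all but that locus, and 2, 3 and 4 of 7 with mouse 1, 2 or 3 of every strain left out. Among CXB strains it called 5 of 7 (16.4% of all genes), namely Ifitm3, Ifi27, Ifit3, Bst2 and Stat2, and 3 of 7 without CXB-7/ByJ, BXD-12/TyJ and BXD74. Among BXH strains it called none of 7 (18.4% of all genes).

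Against C57BL/6J, DBA/2J mice were called higher in 3 rows and A/J mice lower in Ifit3. DBA/2J mice also lay wholly above for Ifitm2, Ifi27 and the Irf9 locus, which were not called with all mice in. The 4 contrasts share the same 3 C57BL/6J mice. Bst2 was at 7.46, 7.46 and 10.4 FPKM in DBA/2J and 2.54, 2.92 and 1.80 in C57BL/6J, groups that did not overlap. The difference was 1.46 ± 0.362 on the log2(FPKM + 1) scale (SE, adjusted p = 0.00231, limma). Ifit3 was at 7.16, 11.3 and 5.63 FPKM in DBA/2J and 3.30, 2.83 and 4.94 in C57BL/6J, again apart (log2 difference 0.921 ± 0.254, adjusted p = 0.00887). Ifitm3 was at 16.9, 29.1 and 25.7 against 13.3, 11.3 and 11.1 FPKM (0.920 ± 0.298, adjusted p = 0.0372). These 3 of 7 stand beside 6.85% of all genes called, 3.29% as higher and 3.56% as lower. Ifi27 differed by 0.81 ± 0.285 (adjusted p = 0.0634, and 0.0125 without OB-547, which enters the shared residual spread). With mouse 2 of every strain left out Bst2 and Ifi27 were called, and with mouse 3 left out Ifit3 alone. None of the 3 calls stood with mouse 1 left out (adjusted p = 0.0557 for Bst2, 0.158 for Ifit3 and 0.0622 for Ifitm3), and Ifitm3 was also not called with mapped reads and the unique share as covariates (0.0573).

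A/J was lower in Ifit3, with 1.05, 1.09 and 0.704 FPKM, by a log2 difference of -1.25 ± 0.254 (adjusted p = 9.7e-05, limma), and higher in Stat2, with 7.34, 7.29 and 6.95 against 4.95, 5.77 and 5.71 FPKM (0.342 ± 0.110, adjusted p = 0.0339). That makes 2 of 7 where 7.98% of all genes were called, 3.06% as higher and 4.92% as lower. C3H/HeJ was also higher in Stat2, with 7.64, 7.77 and 6.54 FPKM (0.36 ± 0.110, adjusted p = 0.0227), which is 1 of 7 against 7.56% of all genes, 3.87% as higher and 3.69% as lower. Both Stat2 calls were lost with mouse 1 of every strain left out (adjusted p = 0.474 for A/J and 0.451 for C3H/HeJ), and with mouse 2 left out (0.203 and 0.231). For BALB/cJ none of 7 was called (6.75% of all genes, 2.85% as higher and 3.91% as lower). Its Ifit3 difference was -0.725 ± 0.254 (adjusted p = 0.0652), and 0.0398 without OB-547.

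**Figure D3:**
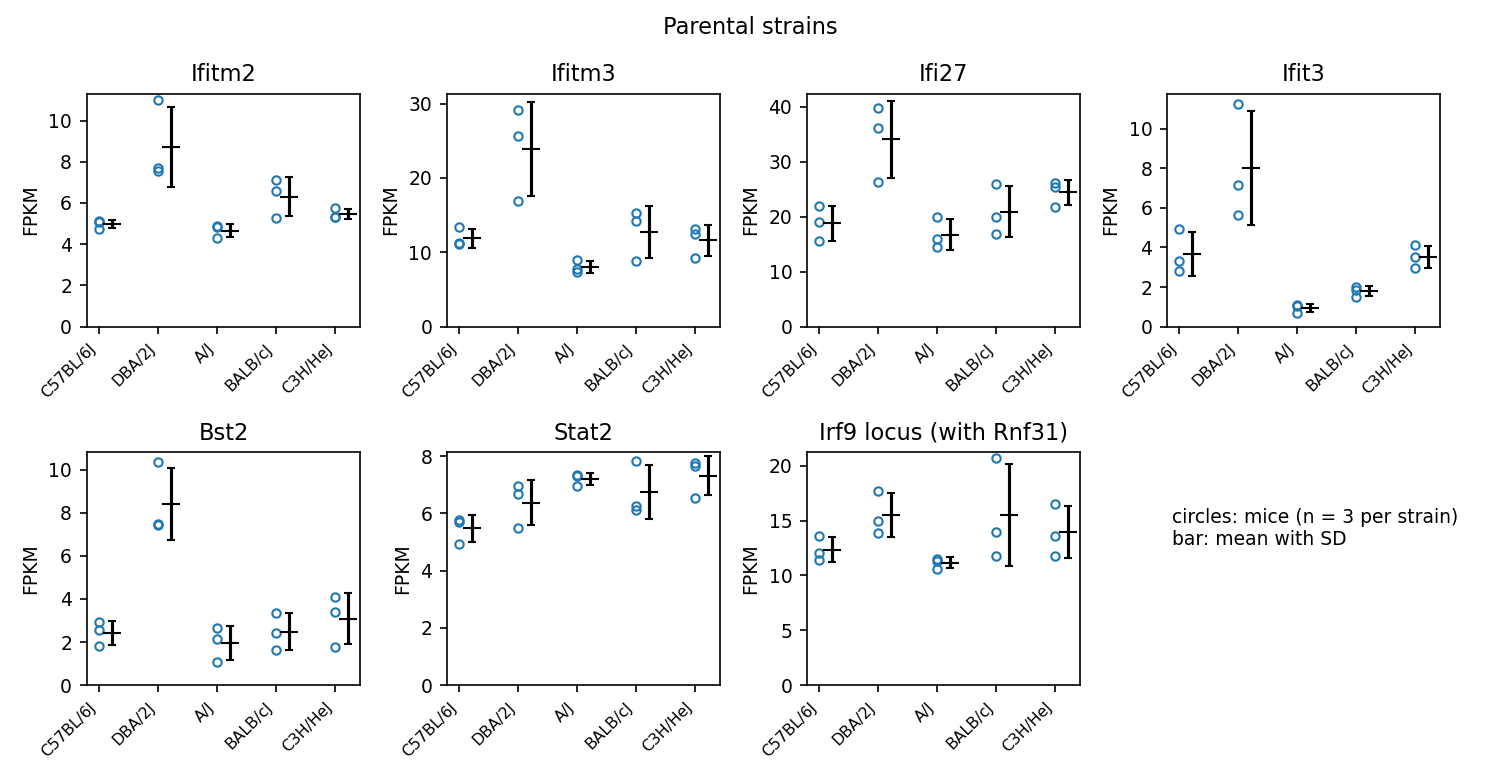
FPKM of the 7 gene rows in the 3 mice of each parental strain (circles) with mean and SD (bars). Every DBA/2J mouse lies above every C57BL/6J mouse in all rows but Stat2, though only Bst2, Ifit3 and Ifitm3 were called. Every A/J mouse lies below them for Ifit3, at 0.704 to 1.09 FPKM, and for Ifitm3, which was not called.

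On the log2 scale 34 of 43 BXD strains were nearer to C57BL/6J than to DBA/2J for Ifit3, 30 for Bst2, 30 for Ifitm3, and 25 each for Ifi27 and the Irf9 locus. For Stat2 and Ifitm2 more were nearer to DBA/2J, 25 and 24 of 43. Strain means also lay beyond both parental means, with 17 of 43 below both for Ifitm3 and 12 for Ifit3, and with 3, 2 and 3 strains above both for Ifitm3, Ifit3 and Bst2. All these are means of 3 mice or fewer, and whether such strains differ from the nearer parent was not tested. These parents were not called apart in Ifi27, Stat2, Ifitm2 or the Irf9 locus. For Stat2 the 6 BXH strains were all nearer to C57BL/6J (5.48 FPKM) than to C3H/HeJ (7.31 FPKM).

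At the transcript level 22 transcripts of the 7 loci were listed, and the F test called 14 (45.9% of all 51024 transcripts), a count that fell to between 6 and 9 when 1 mouse per strain was left out. Ifit3, Bst2, Ifitm2 and Ifitm3 had 1 listed transcript each, all called. Listed transcripts need not add up to the row of their gene, since that of Ifit3 took a median of 78.3% of its row. The leading Ifi27 transcript, TCONS_00076957 of 3 exons, took a median of 24.0% of the gene's FPKM and the next, TCONS_00076954 of 7 exons, 21.5%. In Stat2 the annotated form TCONS_00036024 of 24 exons averaged 1.91 ± 1.03 FPKM (SD, n = 281; strain share 0.237), and TCONS_00036003 of 23 exons averaged 0.737 ± 0.406 (strain share 0.322). The only listed transcript named Irf9, TCONS_00103017 of 2 exons, averaged 0.95 ± 0.495 FPKM, a median of 6.77% of its locus. It did not pass the F test (strain share 0.0148, adjusted p = 0.489). Of its 6 companions, all named Rnf31, the most abundant, TCONS_00103004 of 21 exons took a median of 22.7% of the locus. The companions TCONS_00103008 and TCONS_00103009 run to chr14:55610258, past the end of the transcript named Irf9 at 55605860. The share of Irf9 in the locus can therefore not be read from these names.

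Across strains the 5 effectors covaried, and no pair with Stat2 or the Irf9 locus was called in the fits of both its genes. Over 99 strain means, all 21 pairs of the 7 rows had a positive r, with a median of 0.355 (rho 0.22). A pair was called only if the slope test over all genes passed in the fits of both its genes. The adjusted p given is the larger one. In single fits, a looser measure, 10.8% of all other genes were called over the 7 fits, 5.8% as positive. The Stat2 fit called 0.0284% of all other genes and that of the Irf9 locus 0.682%. Pairs with either row thus had to pass a fit that called few genes. Called were 10 pairs, exactly those among Ifitm2, Ifitm3, Ifi27, Ifit3 and Bst2. The strongest was Ifitm3 with Bst2, with r = 0.822 and rho = 0.688 (permutation p = 1e-05 for each, the smallest 100000 permutations can give; limma adjusted p = 6.72e-22), and r = 0.786 without the 2 strains farthest from the median. Ifi27 with Bst2 had r = 0.812 and rho = 0.706, Ifitm3 with Ifi27 r = 0.783 and rho = 0.687, and Ifit3 with Bst2 r = 0.696 and rho = 0.702, each with the same smallest permutation p. Many strains share parents, so their means are not independent, and the p-values over strain means do not allow for that. Bst2 with Stat2 had r = 0.355 and rho = 0.22 (permutation p = 5e-04 and 0.0292, adjusted p = 0.161), and r = 0.167 without the 2 farthest strains; without mouse 1 of each strain it was called (r = 0.406, adjusted p = 0.0197). Stat2 with the Irf9 locus had r = 0.285 (adjusted p = 0.411).

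The sets differed in how tightly these rows ran together, though this difference was not tested. The median r over pairs was 0.469 in 43 BXD strains, 0.564 in 7 CXB, 0.294 in 25 classical inbred, 0.26 in 6 BXH and 0.196 in 18 AXB/BXA strains. For Ifitm3 with Bst2 it was 0.891 in BXD, 0.91 in CXB and 0.473 in AXB/BXA strains. Without BXD-12/TyJ, BXD74 and CXB-7/ByJ, left out after their values were seen, the same 10 pairs were called, and Ifitm3 with Bst2 had r = 0.779.

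Deviations from the strain mean compare mice of the same inbred strain. In samples of strains with at least 2, the median r was 0.365 (rho 0.206), and 13 of 21 pairs were called, the same 10 and those of Stat2 with Ifitm3 (r = 0.43), Ifit3 (0.433) and Bst2 (0.424). In these fits, each counted alone, 29.5% of all other genes were called, 16.8% as positive. Without OB-547 the shares were 9.41% and 5.21%, and 11 of 21 pairs were called, without those of Ifitm2 with Ifit3 and with Bst2. Without OB-1121 the pair of Stat2 with Ifitm3 was still called (r = 0.297, adjusted p = 0.0307), but not those with Ifit3 (0.0756) and Bst2 (0.202), and without mouse 3 of each strain, OB-1121 among them, none of the 3 was. Without the 3 strains above, 7 pairs were called (9.64% of all other genes), none of them with Stat2. Ifitm3 with Ifi27 had r = 0.617, and 0.472 without those strains.

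**Figure D4:**
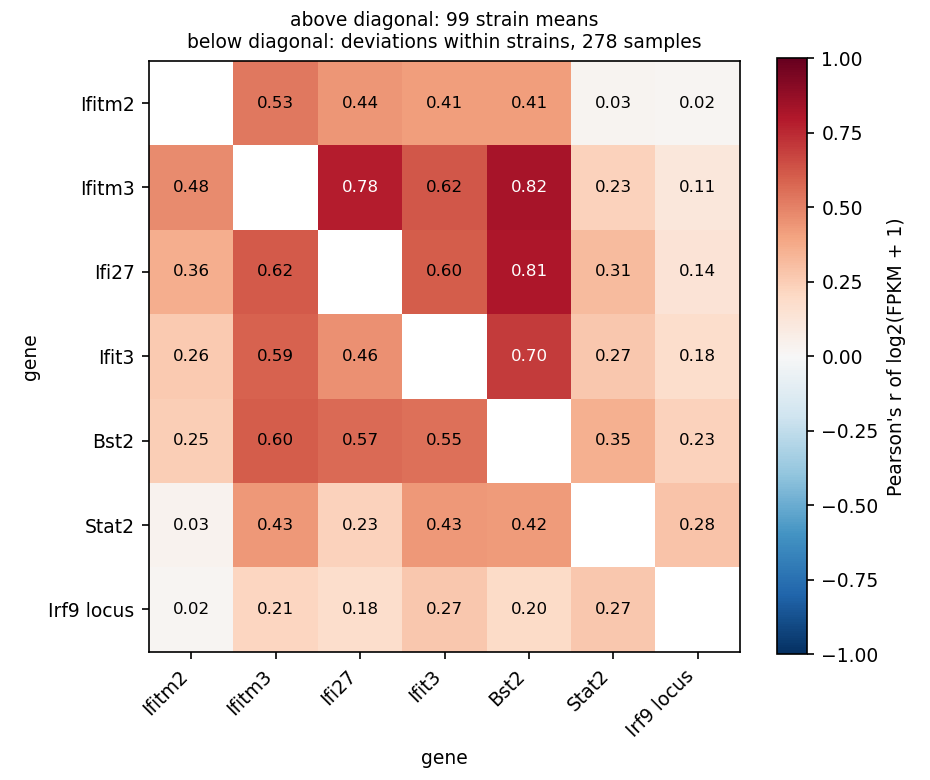
Pearson's r of log2(FPKM + 1) between the 7 gene rows, above the diagonal over 99 strain means and below it for deviations from strain means in samples of strains with at least 2. The 5 effectors form a block reaching 0.822. Stat2 had a higher r within strains than over strain means with Ifitm3 (0.43 against 0.232), Ifit3 (0.433 against 0.269) and Bst2 (0.424 against 0.355). With Ifi27 it was lower (0.233 against 0.314), and with Ifitm2 it was low in both (0.034 and 0.0268). Without OB-1121 the values of Stat2 with Bst2 were 0.234 within strains and 0.256 over strain means.

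Single mice were high in many of these genes at once. Of 281 samples, 243 were among the 10 highest for none of the 7 rows, and 8 samples were so for 4 rows or more. OB-1121 of BXD74 was among them for 6 rows. It had 75.6 FPKM of Ifitm3, where its strain-mates had 12.5 and 22.3, and 51.2 FPKM of Bst2, where they had 3.80 and 6.13. Its Ifitm2, 8.67 FPKM, was no higher than that of a strain-mate at 8.84. OB-677 of CXB-7/ByJ was also among them for 6 rows, with 25.1 FPKM of Bst2 and 108.4 of Ifi27. Its strain-mate OB-676 was next to it, at 17.7 and 81.9 FPKM, and the other, OB-678, had 4.84 and 30.1 FPKM. OB-547 was among them for 5 rows, with 182 FPKM of Ifi27, where its strain-mates had 16.5 and 19.6.

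These mice parted in what else was high. On the log2 scale, OB-1121 was a median of 1.31 above its strain-mates over the 7 rows and 0.85 over the 54 other pathway loci, and 23 of these were at least 1 unit higher, as were 0.852% of all genes. OB-677 was 1.0 and 0.299 higher, with 6 pathway loci and 0.817% of all genes at least 1 unit up. OB-547 was 1.69 and 0.274 higher, with 15 pathway loci and 23.0% of all genes at least 1 unit up, and its Stat2 (6.87 FPKM) was below that of a strain-mate (6.93). Irgm1, an interferon-inducible GTPase, was at 54.9 FPKM in OB-1121 and 5.53 and 8.27 in its strain-mates, and at 4.84 FPKM in OB-547, where they had 5.97 and 6.31. Oasl2, an oligoadenylate synthetase-like protein, was at 41.9, 36.9 and 8.45 FPKM in OB-1121, OB-677 and OB-547, against a median of 2.46.

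**Figure D5:**
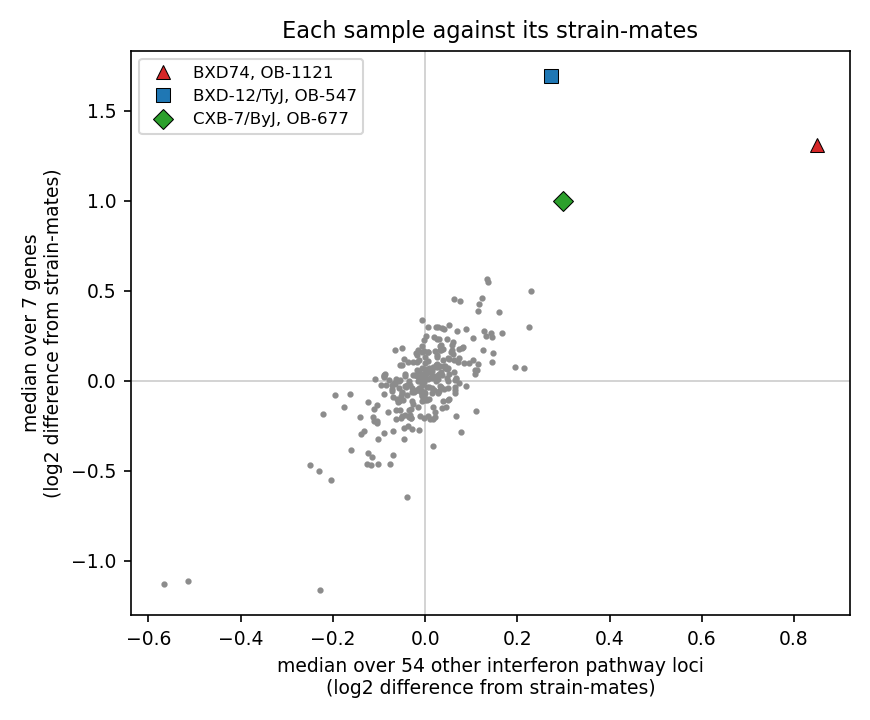
Median log2 difference of each sample from its strain-mates, over 54 other interferon pathway loci (horizontal) and over the 7 gene rows (vertical). OB-1121 lies at 0.85 and 1.31, OB-677 at 0.299 and 1.0, and OB-547 at 0.274 and 1.69.

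Markers of other cells were read in the same samples. The sum over 8 microglial markers ranged from 143 to 835 FPKM with a median of 179. It was 835 in OB-547, 248 in OB-1121 and 234 in OB-677, which is above 99.6%, 98.9% and 98.6% of the samples, and 156 in OB-709 of BXD-38/TyJ, which was among the 10 highest for 4 of the 7 rows. OB-547 also had the highest sums of the blood (580 FPKM, median 134), endothelial (159, median 83.6) and hypothalamic markers (9270, median 1373), and its astrocyte sum (186, median 239) was above only 1.07% of samples. OB-1121 and OB-677 were above 91.1% and 92.5% of samples for endothelium, and OB-677 above 1.42% for anterior pituitary. Over strain means, r of this sum with the 7 rows ran from -0.0124 to 0.233. Within strains it reached 0.605 with Ifi27, and 0.303 without OB-547. The part of microglia in these levels was not tested. For meninges and fibroblasts 2 of 6 markers, Dcn and Igf2, had rows, and their sum (10.2 to 61.3 FPKM) followed Ifitm2 over strain means with r = 0.624 and Ifitm3 with r = 0.553, but Stat2 with -0.132. Within strains these values were 0.516, 0.383 and -0.0502. The sum over 7 endothelial markers (64.8 to 159 FPKM) had r = 0.425 with Ifitm3 over strain means and 0.313 within strains, the latter 0.199 without OB-547. Anterior pituitary markers had r = 0.415 with Ifitm2 over strain means and 0.45 within strains (0.46 without OB-547), and hypothalamic markers r = 0.477 with Ifi27 within strains (0.367 without OB-547). These correlations describe samples that share a scaling, and what part such cells have in these levels was not tested.

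The genes most like each row over strain means, of 11345 single-name genes with a mean of at least 1 FPKM, were named by rank of r alone. For Bst2 they were Oasl2 (r = 0.856), the ubiquitin-like modifier Isg15 (0.824) and Lgals3bp (0.796). For Ifi27 they were Oasl2 (0.811), Rtp4 (0.765) and Ifi27l2a (0.743), and for Ifitm3 Oasl2 (0.795), Irgm1 (0.783) and Rnf213 (0.773). For Ifit3 they were I830012O16Rik, Ifi27l2a (0.658) and Oasl2 (0.631). Ifitm2 ran with Mgp (0.651), Dcn (0.646) and Rcn3 (0.642), of which Mgp and Dcn encode matrix proteins. Stat2 ran with I830012O16Rik (0.468), Rtp4 (0.439) and Irgm1 (0.398), with rho of 0.255, 0.21 and 0.145, and the Irf9 locus with Mllt4 (0.533) and Doc2a (0.495). Within strains H2-D1, a class I antigen-presenting molecule, was first for Ifitm3 (r = 0.717) and Bst2 (0.643), each followed by H2-K1 (0.654 and 0.621), then Cd74 (0.607) for Ifitm3 and Ifi27l2a (0.587) for Bst2. Ifit3 was nearest to I830012O16Rik (0.663), B2m (0.657) and H2-D1 (0.63). Stat2 was nearest to Oasl2 (0.508), H2-D1 (0.503) and Irgm1 (0.486), with rho of only 0.291, 0.218 and 0.124. Ifitm2 was nearest to Clic1 (0.646), Efemp1 (0.639) and Rcn3 (0.596), Ifi27 to Rps18 (0.727), Ly6e (0.719) and Cd63 (0.711), and the Irf9 locus to Acot8 (0.336), Smim4 (0.313) and Ints1 (0.31). For Ifi27, 4.79% of all genes had a within-strain r of at least 0.5, and for the other rows 0.213% or fewer.

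Of a longer list of genes of interferon signalling and response, 55 were found, at 54 loci; Ifit1 is not analysed here. The F test over strains called 44 of the 54, with a median strain share of 0.29, where 74.9% of all genes were called. The largest shares were those of the tripartite motif gene Trim12a (0.934), the receptor subunit Ifnar1 (0.539), Parp12 (0.524), the locus of Daxx with 3 neighbours (0.499) and Tor3a (0.487). The other receptor subunit, Ifnar2, in a locus with Il10rb, had 0.198, Isg15 had 0.358 and Ifi27l2a 0.482. Over strain means Ifnar1 had r = -0.0214 with Bst2 (adjusted p = 0.914, limma), and the Ifnar2 locus had r = 0.445 (adjusted p = 0.000628). With Bst2, 35 of 54 loci were called over strain means, 34 as positive, where 12.3% of all other genes were called and 6.17% as positive. The negative one was the kinase Jak1. With Ifitm3 the count was 35 (20.3% of all other genes), 34 as positive (10.3%), and with Ifi27 also 35 (24%), 34 as positive (12.1%). With Ifitm2 it was 26 (12.6%) and with Ifit3 24 (5.85%), all positive (7.56% and 3.85% of all other genes). With Stat2 1 locus, Rtp4, was called (0.0284% of all other genes), and with the Irf9 locus none (0.682%, 0.618% as positive).

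Within strains 21 loci, all positive, were called with Stat2, where 0.654% of all other genes were called and 0.547% as positive. This count is with OB-1121 in, whose Stat2 of 18.6 FPKM stood far above the next highest sample at 9.6. With the Irf9 locus none was called (0.0852%, 0.0497% as positive). With Ifitm2 22 were called, all positive (18.3%, 10.3% as positive). The fits with the other effectors called large shares of all genes (without OB-547 the share pooled over the 7 fits was 9.41%). Their counts of loci are given only with OB-547 in. With Ifitm3 39 loci were called, 36 as positive (50.4%, 28.8% as positive), with Ifi27 38, 33 as positive (65.5%, 36.9% as positive), with Ifit3 39, 36 as positive (34.5%, 19.5% as positive), and with Bst2 36, 33 as positive (37.3%, 21.7% as positive).

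In DBA/2J against C57BL/6J, 4 of the 54 loci were called (6.85% of all genes): Oasl2 (log2 difference 1.14), the guanylate-binding protein Gbp2 (1.03) and Lgals9 (0.61) were higher, and Trim12a was lower (-1.63). In A/J 3 were called (7.98%), with Xaf1 (-1.05) and Trim12a (-1.63) lower and Ifnar1 (0.27) higher. In BALB/cJ 4 were called (6.75%), 1 higher and 3 lower, and in C3H/HeJ 2 (7.56%), both lower. Trim12a was among the lower ones in both, again at -1.63, and its median over all samples was only 0.103 FPKM. The medians over the 54 loci were 0.11 for DBA/2J, -0.165 for A/J, -0.0643 for BALB/cJ and -0.0634 for C3H/HeJ.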

How the data were processed

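Whole hypothalamus RNA of 282 male mice was sequenced, and the 99 strains, from the labels, form the groups. The p-values of strain differences and of covariation within strains rest on the spread between mice of a strain. Those of covariation over strain means rest on the scatter among 99 means. Per the labels and the study's methods, reads were aligned to mm10 with STAR 2.3.1, assembled with Cufflinks 2.2.0 and quantified with Cuffnorm 2.2.1, and the authors deposited FPKM for genes and transcripts with FPKM above 0 in at least 100 samples and above 1 in at least 50; of 14079 gene rows 14077 meet this. FPKM carry no counts, so the depth behind a value is unknown and no counting interval is given.

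The genes and lists were chosen with earlier results of these data known. Values were tested as log2(FPKM + 1) with limma 3.58.1 in R 4.3.3, in 1 fit over all strains, with Benjamini-Hochberg adjustment over all rows and a threshold of 0.05; a difference on this scale understates the change of low genes. Covariation was tested by regressing every other gene on each gene, over strain means or with strain as a factor. Named genes were every listed gene with a row, and for each the 3 highest and lowest strains and the 3 genes of highest r, of which 1 is not reported here. The fits were run on simulated data with independent strains and normal noise, which held neither related strains nor outlying mice. Descriptions used Python 3.11.15 and figures matplotlib 3.10.9.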

Additional observations from a re-analysis of the deposited data

How the results depend on the processing

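FPKM without counts, 3 mice or fewer in a strain, shared paralog sequence and a joined Irf9 locus limit these values. Reads of every strain were aligned to mm10, and loss of reads to sequence differences between strains was not tested. No called result changed its sign under the alternatives run, though 19 alternative values of uncalled differences or correlations did; 36 values for single genes or pairs lost their call and 8 gained one. The labels give no pairing of mice between strains, and none was used. Mice were numbered within a strain to name them and to choose which were left out. All 7 rows differed between strains under each scaling, filter, covariate, rank-test and excluded-mouse alternative. With mouse 1, 2 or 3 of each strain left out, counts ranged from 5 to 7 of 7 over all strains, 2 to 4 among classical inbred strains, 3 to 5 among CXB and 1 to 2 among AXB/BXA strains, 0 to 2 for DBA/2J, 1 to 2 for A/J, 0 to 1 for C3H/HeJ, 0 to 1 for BALB/cJ and 6 to 9 of 22 transcripts, the median r over strain means from 0.316 to 0.406, and the within-strain median r from 0.256 to 0.387. With a pseudocount of 0.1, and without OB-547, 1 row was called for BALB/cJ in place of 0 and 2 in place of 1 among AXB/BXA strains. Without OB-1121, added after seeing the data, 2 were called among AXB/BXA strains and the within-strain median r was 0.247. Without BXD-12/TyJ, BXD74 and CXB-7/ByJ, also added then, 4 rows were called among AXB/BXA, 1 among BXH and 3 among CXB strains, 7 pairs within strains, and the median r was 0.193 over strain means and 0.167 within. The median r over strain means was 0.22 as Spearman's rho, 0.182 without the 2 farthest strains, and 0.196, 0.469 and 0.564 within AXB/BXA, BXD and CXB strains; within strains rho was 0.206. Counting both near-identical CXB-6/ByJ columns, chosen after seeing the data, moved none of the counts by over 1.5 times. The causes were not tested.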
